A study of Rattus norvegicus with 20 samples.

Results

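The solute carriers (SLC families) are the membrane proteins that move ions, nutrients, metabolites and drugs across the plasma membrane, the mitochondrial inner membrane and the membranes of lysosomes and the Golgi. The genes described here are those with a platform symbol starting with Slc, including the organic anion transporting polypeptides (symbols starting with Slco). A gene was taken when a probe set naming it alone exceeded 4 on the log2 scale in 5 or more of 20 arrays, and its probe set with the highest mean stood for the gene. Of 308 such genes on the array, 143 met this rule, out of 7837 named genes that met it in all. Of the other 165 genes, 151 had no array above 4 at their best probe set, among them the cystine carrier Slc7a11 and the glucose carrier Slc2a1. At the edge of the rule, Slc22a12 and Slc6a14 had 5 arrays above 4 (means over all arrays 3.85 and 3.82), and the glutamate carrier Slc1a2 had 4 (mean 3.15). Slc4a1ap and Slc7a6os, named after carriers, are not carriers themselves and were kept as the rule had them.

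Liver RNA of 20 female Sprague Dawley rats was measured, 1 Affymetrix array per rat, in 4 groups of 5 set at random. All rats ate the same mash diet for 24 days. The control group had nothing added, the BNF group had 5,6-benzoflavone at 1650 mg per kg of diet, the D3T group had 3H-1,2-dithiole-3-thione at 600 mg per kg, and the OLT group had oltipraz, the 4-methyl-5-pyrazinyl derivative of D3T, at 500 mg per kg. Values are the deposited log2 values, so a difference of 1 is a 2-fold change. A gene is called, and is said to rise or fall, when limma, fitted to all arrays, gave an adjusted p under 0.05 (Benjamini-Hochberg, all 12947 kept probe sets). Values after ± are SDs over 5 arrays, and SE is the standard error of a difference from limma's moderated variance.

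In liver, carriers on the blood side of the hepatocyte take up bile acids, drugs and hormones, while carriers of the mitochondrial inner membrane link the urea cycle, fatty acid oxidation and gluconeogenesis to the cytosol. Benzoflavone is known as a ligand of the aryl hydrocarbon receptor, and dithiolethiones are known to activate the transcription factor Nrf2. Both factors bind short DNA motifs near genes of drug metabolism, a setting in which carriers act as the uptake and export steps.

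The arrays labelled D3T 5 and OLT 1 stood apart from their labels. Over all kept probe sets D3T 5 correlated with the OLT arrays at a mean r of 0.979 and with the other D3T arrays at 0.968, and OLT 1 with the D3T arrays at 0.966 and with the other OLT arrays at 0.963. Counts and values that rest on them are given with and without them. In the hepatocyte list 5 of 6 markers were measured and each had a control mean above 13. The measured markers of other cells moved in places: the summed level of 7 stellate cell and fibroblast markers was 10.64 to 11.28 in control arrays and 11.66 to 12.45 in BNF arrays (log2), with Col1a1, Col1a2, Col3a1 and Dcn called higher. That of the 5 measured genes of the lymphocyte list was 10.07 to 11.21 and 11.55 to 12.36, with Cd74 as the only gene called. That of 9 macrophage markers was 11.41 to 12.15 and 12.05 to 13.15, with Tyrobp and Laptm5 called. That of the erythrocyte markers Alas2 and Hbb was 12.11 to 13.57 in control, 13.51 to 14.36 in D3T and 13.52 to 14.41 in OLT arrays, and both genes were called higher under D3T and under OLT. Of the hepatocyte markers Apoa1 rose under BNF by 0.78, of 2 measured cholangiocyte markers Aqp1 rose under BNF from a control mean of 3.05, and none of 6 endothelial markers was called under any diet. The part of these markers in the carrier results was not tested, and in whole liver fewer cells of a type and less RNA per cell cannot be told apart.

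Under BNF 12 of the 143 genes were called, 3 higher and 9 lower (8.39%; 4.17% of all 7837 genes were called, 1.77% higher and 2.4% lower). Under D3T 31 were called, 15 higher and 16 lower (21.7%, against 13.1% of all genes, 5.6% higher and 7.45% lower). Under OLT 16 were called, 5 higher and 11 lower (11.2%, against 7.5%, 1.93% higher and 5.58% lower). The median difference of the carriers was -0.06, -0.03 and -0.05, beside -0.06, -0.02 and -0.05 over all genes. The split by direction depended on the scaling: with each array centred on its median the counts were 3 higher and 7 lower under BNF, 23 and 13 under D3T, and 8 and 7 under OLT. With a further quantile normalization they were 6 and 8, 19 and 20, and 8 and 10. Without D3T 5 and OLT 1 the counts were 14, 34 and 12 (5.16%, 15% and 5.44% of all genes), of which 12, 27 and 11 were called the same way with them. The treated and control arrays did not overlap for 18 carriers under BNF, 24 under D3T and 18 under OLT, beside 7.73%, 11.8% and 7.62% of all genes. For the mean of both dithiolethione groups against control, 32 carriers were called, 12 higher and 20 lower (22.4%, against 14.8% of all genes, 4.98% higher and 9.8% lower). Centred, 24 were higher and 14 lower, and without D3T 5 and OLT 1 there were 25 (12.9% of all genes). Of the 32, Slc25a30 (-1.09), Slc13a3 (-0.82), Slc35e1 (-0.60), Slco1b2 (-0.43) and Slc38a3 (0.28) were called under neither diet alone (adjusted p from 0.033 to 0.0435). Each was lost on leaving out any 1 of 4 to 14 arrays, and each was lost without the filter (0.0785 to 0.0964). Median centring ended the calls of Slc13a3 (0.0734), Slc35e1 (0.0936) and Slco1b2 (0.108). The mean of probe sets ended those of Slc25a30 (0.0744) and Slco1b2 (0.167).

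The comparisons share the 5 control arrays, so their calls are given side by side. In all, 38 of the 143 carriers were called under at least 1 diet (18.4% of all genes were). The genes called under all 3 diets were Slc22a18 and Slc3a2, both higher, and Slc27a5, Slc40a1 and Slc25a13, all lower.

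**Figure D1:**
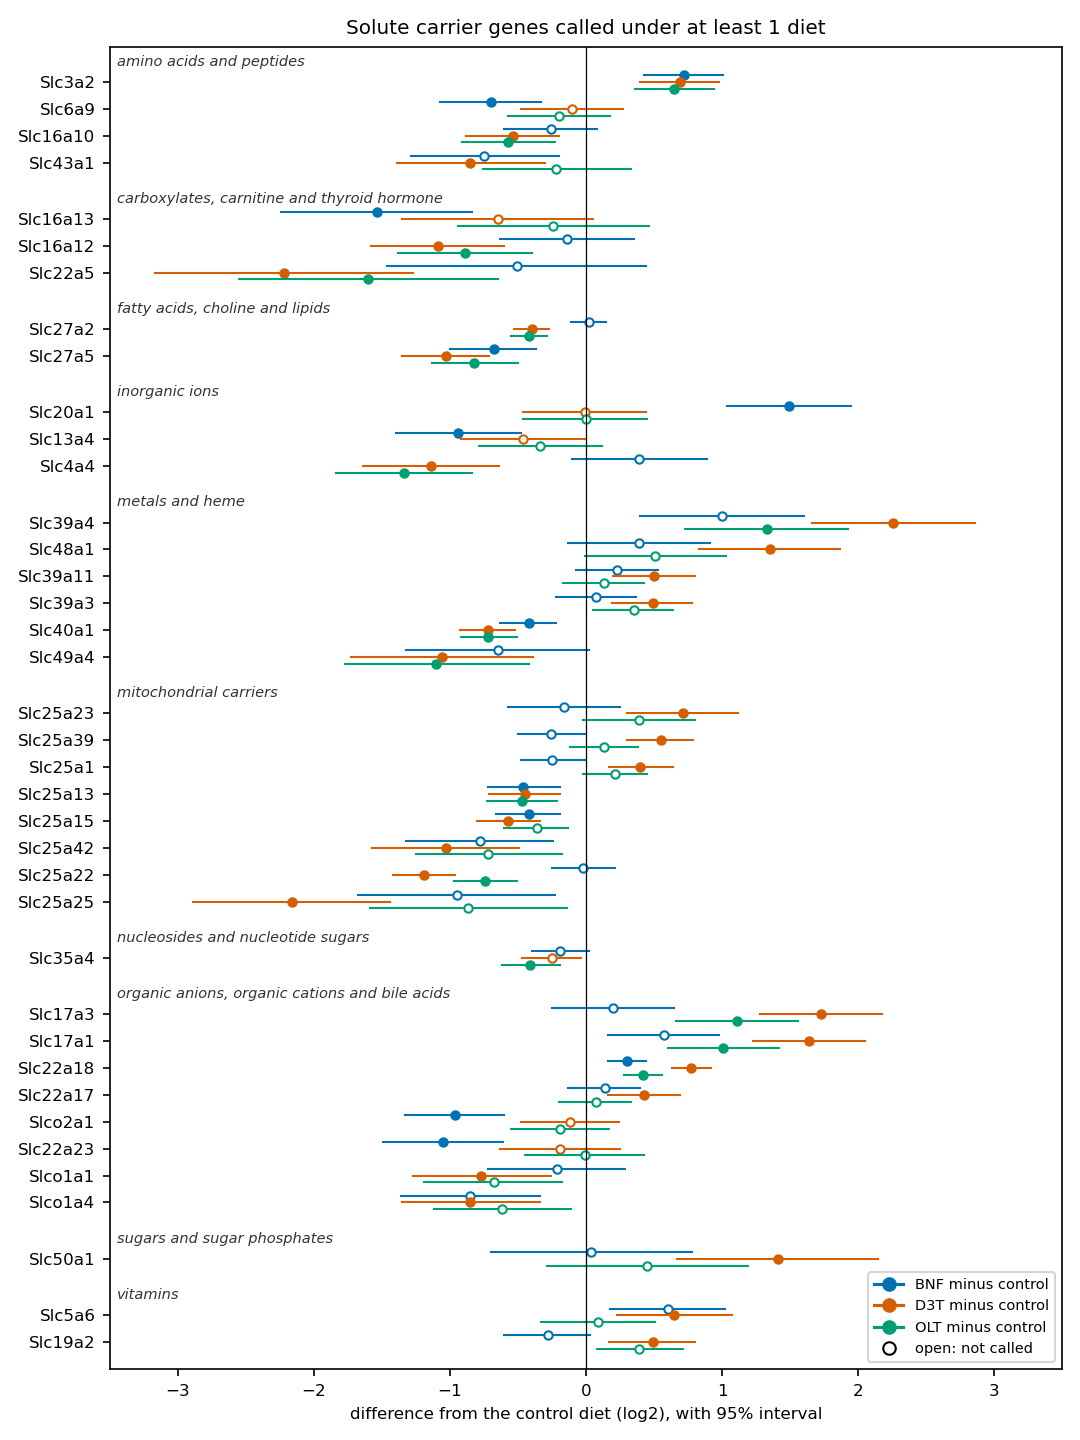
Difference from the control diet (log2, horizontal axis) of the 38 carriers called under at least 1 diet, grouped by substrate class, with 95% intervals; filled points are called and open points are not. D3T points lie farthest from 0 for Slc39a4 (2.26) and Slc22a5 (-2.22), and the BNF point of Slc20a1 (1.49) stands apart from those of D3T and OLT.

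**Figure D2:**
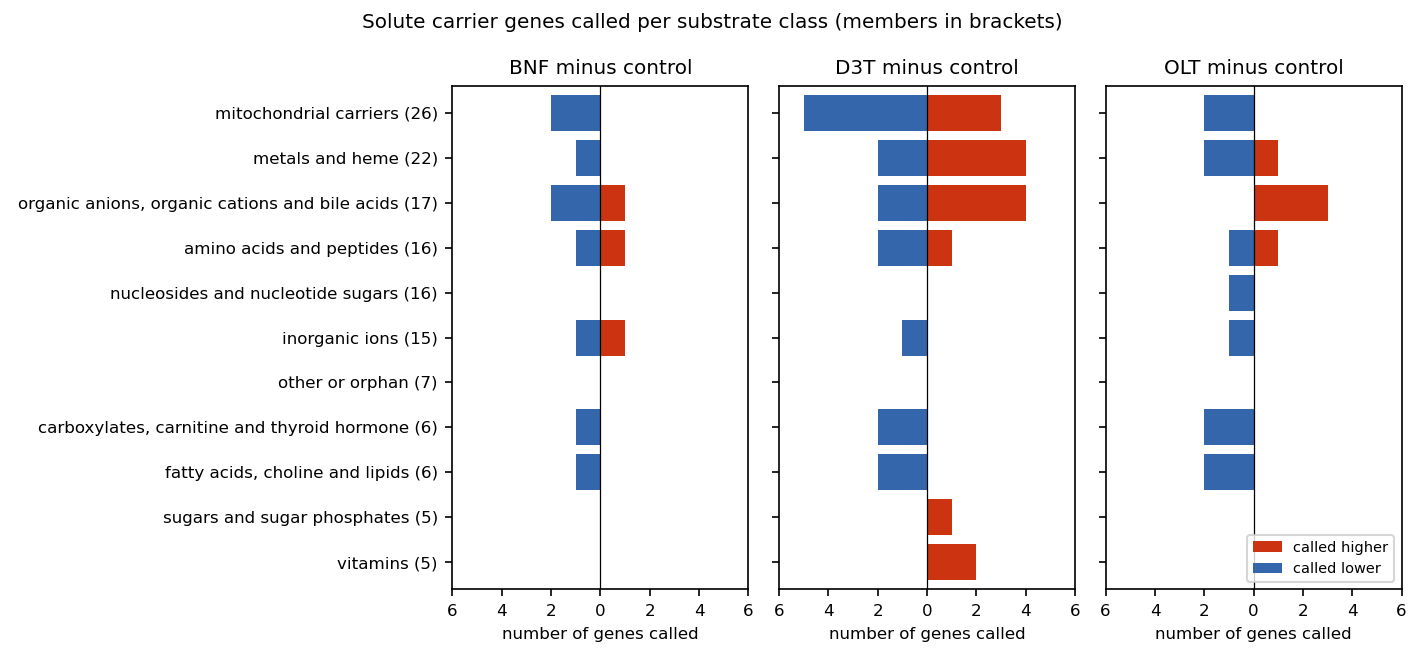
Number of carriers called lower (left of 0) and higher (right of 0) in each substrate class, in 1 panel per diet; brackets give the members of the class. Under D3T the organic ion class had 4 higher and 2 lower calls, and the class of carboxylates, carnitine and thyroid hormone had none higher and 2 lower. Over all genes 5.6% were higher and 7.45% lower under D3T.

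Among the carriers of organic anions, organic cations and bile acids (17 genes), 4 rose and 2 fell under D3T, 3 rose and none fell under OLT, and 1 rose and 2 fell under BNF. Beside this and the later class counts stand the shares of all genes. These were 5.6% higher and 7.45% lower under D3T, 1.93% and 5.58% under OLT, and 1.77% and 2.4% under BNF. Slc17a1 and Slc17a3, sodium phosphate transporter family members that carry urate and organic anions, rose under both dithiolethiones. Slc17a1 read 8.97, 8.61, 8.49, 8.54 and 8.59 in the control arrays and 10.75, 10.41, 10.28, 10.31 and 9.64 in the D3T arrays. In the OLT arrays it read 10.32, 9.37, 9.20, 9.69 and 9.66. Every D3T and OLT array lay above every control array; D3T 5 was the lowest of its group and OLT 1 the highest. The mean rose from 8.64 ± 0.19 to 10.28 ± 0.40 under D3T, a difference of 1.64 (SE 0.20, 3.11-fold, adjusted p = 3.36e-05), and to 9.65 ± 0.43 under OLT, a difference of 1.01 (SE 0.20, 2.01-fold, adjusted p = 0.00438). Under BNF it was 9.21 ± 0.16, without overlap with control; the difference of 0.57 (SE 0.20) was not called (adjusted p = 0.124; 0.019 and called without D3T 5 and OLT 1).

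Slc17a3 read between 10.76 and 11.38 in control, between 11.97 and 13.18 in D3T and between 11.63 and 12.68 in OLT arrays, again without overlap with control. It rose by 1.73 under D3T (SE 0.22, 3.32-fold, adjusted p = 4.90e-05) and by 1.11 under OLT (SE 0.22, 2.16-fold, adjusted p = 0.00442), with BNF at a difference of 0.20 that was not called. Slc22a18, an imprinted member of the organic cation transporter family, rose under every diet: its mean was 11.79 ± 0.10 in control, 12.09 ± 0.08 in BNF, 12.56 ± 0.01 in D3T and 12.21 ± 0.11 in OLT arrays. The adjusted p was 0.0159, 1.59e-06 and 9.95e-04, and no treated array overlapped the controls. Median centring ended the BNF call (adjusted p = 0.0653). Slc22a17, described as a receptor for lipocalin 2, rose by 0.43 under D3T (SE 0.13, adjusted p = 0.0355), a call lost on leaving out any 1 of control 2, 3, 4 or D3T 1, 3, 4 (adjusted p from 0.0554 to 0.0962).

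Among the organic anion transporting polypeptides, which take up bile acids and drugs, calls against control were decreases. Slco1a4 fell under D3T from 11.62 ± 0.25 to 10.77 ± 0.33 (difference -0.85, SE 0.24, adjusted p = 0.0281), and Slco1a1 from 10.92 ± 0.33 to 10.15 ± 0.39 (difference -0.77, SE 0.24, adjusted p = 0.0450). Under OLT the differences were -0.62 and -0.68 and were not called, and under BNF Slco1a4 differed by -0.85 (SE 0.24, adjusted p = 0.0594). A second Slco1a4 probe set gave -1.38 under D3T (adjusted p = 0.0354), -0.69 under BNF and -1.1 under OLT, the last pair not called. The Slco1a4 call was lost without control 1, control 5, D3T 1 or D3T 2 (adjusted p from 0.0574 to 0.0801). That of Slco1a1 was lost without any 1 of 13 arrays, namely control 1, 2, 4, 5, BNF 1, 3, 4, 5, D3T 2, 3, 4, 5 and OLT 3 (0.0511 to 0.118), and without D3T 5 and OLT 1 together (0.0658). Members of the Slco1a subfamily are close in sequence, and whether their probe sets share signal was not tested. Slco1b2, the main such carrier of hepatocytes, had differences of -0.06, -0.44 and -0.41 under BNF, D3T and OLT, none called. A second Slco1b2 probe set (mean 13.29) gave 0.01, -0.37 (adjusted p = 0.317) and -0.01 (adjusted p = 0.983). Without D3T 5 and OLT 1 the D3T difference of the first probe set was -0.47 and called (adjusted p = 0.049). Slc10a1, the sodium-dependent bile acid carrier NTCP, had a control mean of 13.49 ± 0.10 and was not called; its differences were -0.07, 0.18 and 0.11, with 95% intervals of -0.27 to 0.13, -0.02 to 0.37 and -0.09 to 0.31. The organic anion carrier Slc22a7 and Slco2b1 were also not called under any diet.

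Slco2a1, the prostaglandin transporter, and Slc22a23, an orphan of the organic ion family, fell under BNF. Slco2a1 read between 10.77 and 11.11 in control arrays and 9.82, 9.36, 10.43, 10.02 and 10.15 in BNF arrays, without overlap. Its difference was -0.96 (SE 0.17, 1.95-fold lower, adjusted p = 0.00322); a dimmer probe set gave -0.65 (adjusted p = 0.281). The D3T and OLT means were 10.80 ± 0.32 and 10.73 ± 0.19, and BNF lay below D3T by 0.84 (adjusted p = 0.00265) and below OLT by 0.77 (adjusted p = 0.00757). The dimmer probe set gave -0.31 (adjusted p = 0.533) and -0.22 (adjusted p = 0.687) there, and the mean of both was not called in either comparison (adjusted p = 0.0513 and 0.116). Slc22a23 read between 8.32 and 9.36 in control and between 7.04 and 8.35 in BNF arrays, so the groups overlapped by 1 array, BNF 3. Its difference was -1.05 (SE 0.21, adjusted p = 0.00773); a second probe set with a mean near background (3.80) gave 0.04, and the mean of both was not called (adjusted p = 0.572). Fitting only the control and BNF arrays gave an adjusted p of 0.0511.

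The promoter of Slc22a23 is shown because it was the promoter of a called carrier that held both motifs searched. The window runs from 250 bases before to 50 after the RefSeq start on GRCr8, chr17:30749195-30749494, plus strand, and capitals mark the matches to TNGCGTG, the core letters of the aryl hydrocarbon receptor's element, and TGACNNNGC, the core letters of the antioxidant response element.

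Slc22a23: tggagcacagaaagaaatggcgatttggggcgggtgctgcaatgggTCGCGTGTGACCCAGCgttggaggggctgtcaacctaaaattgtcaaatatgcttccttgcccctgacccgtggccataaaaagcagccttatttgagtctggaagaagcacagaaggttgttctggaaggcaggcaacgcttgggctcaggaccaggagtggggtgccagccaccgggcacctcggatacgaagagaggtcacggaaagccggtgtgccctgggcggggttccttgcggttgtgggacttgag

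Among the carriers of metals and heme (22 genes), 4 rose and 2 fell under D3T, 1 rose and 2 fell under OLT, and 1 fell under BNF. Slc39a4, the zinc importer ZIP4, had the largest increase of any carrier under D3T and under OLT. It read 6.75, 6.51, 6.37, 6.62 and 6.45 in control and 9.04, 8.87, 9.12, 9.51 and 7.44 in D3T arrays. In OLT arrays it read 8.53, 7.53, 7.37, 7.88 and 8.03, and in BNF arrays 7.31, 7.46, 7.59, 7.42 and 7.91. All treated arrays lay above all controls; D3T 5 lay far below the other D3T arrays and OLT 1 above the other OLT arrays. The difference was 2.26 under D3T (SE 0.29, 4.78-fold, adjusted p = 5.92e-05) and 1.33 under OLT (SE 0.29, 2.51-fold, adjusted p = 0.00883). Under BNF it was 1.0 (SE 0.29, 95% interval 0.40 to 1.60), which was not called (adjusted p = 0.0616; 0.00119 and called without D3T 5 and OLT 1, which share the variance estimate).

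Slc48a1, the carrier that moves heme out of the endolysosome, rose under D3T from 5.48 ± 0.27 to 6.83 ± 0.50 (difference 1.35, SE 0.25, 2.56-fold, adjusted p = 0.00158). Its D3T arrays read 7.45, 6.67, 7.27, 6.45 and 6.32, all above the control range of 5.17 to 5.74. In OLT arrays it read 7.01 in OLT 1 and 5.74, 5.56, 5.72 and 5.91 in the others, and the group was not called. The zinc carrier family members Slc39a11 and Slc39a3 rose under D3T by 0.50 (SE 0.14, adjusted p = 0.0297) and 0.49 (SE 0.14, adjusted p = 0.0289). The Slc39a11 call was lost without any 1 of control 2, 4, 5 or D3T 3, 4 (adjusted p from 0.0711 to 0.0912), and that of Slc39a3 without any 1 of control 2, 4, 5 or D3T 2, 3, 5 (0.0575 to 0.0912) and without D3T 5 and OLT 1 (0.0608).

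Slc40a1, the iron exporter ferroportin, fell under every diet. It read between 10.73 and 11.03 in control, 10.35 and 10.59 in BNF, 9.98 and 10.32 in D3T and 9.99 and 10.43 in OLT arrays, so no treated array reached the controls. The difference was -0.42 under BNF (SE 0.10, adjusted p = 0.0198), -0.72 under D3T (SE 0.10, adjusted p = 1.16e-04) and -0.72 under OLT (SE 0.10, adjusted p = 3.15e-04). Of its 2 other probe sets, the brighter had differences of -0.23, -1.15 and -1.08, the last pair called. The dimmer had 0.10, -0.31 and -0.30, none called, and the mean of the probe sets was not called under BNF (adjusted p = 0.716). The BNF call was also lost without control 5 or BNF 1 (adjusted p 0.0683 at most). Macrophages, which also use ferroportin, had 9 measured markers, of which 2 were higher under BNF, none was called under D3T and Cd163 fell under OLT by 1.46.

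The other decrease of this class under D3T and OLT, beside Slc40a1, was that of Slc49a4. Slc49a4 is a lysosomal membrane protein placed in the class by hand, and whether it carries metals or heme was not tested. It fell by 1.06 under D3T (SE 0.32, adjusted p = 0.0373) and by 1.1 under OLT (SE 0.32, adjusted p = 0.0474). The D3T call was lost without any 1 of control 1, 2, 4, 5 or D3T 1, 2, 3 (adjusted p from 0.0615 to 0.106). The OLT call was lost without any 1 of 12 arrays, control 1, 2, 4, 5, BNF 1, 3, 4, D3T 1, 3 and OLT 1, 2, 3 (0.0521 to 0.115), and without D3T 5 and OLT 1 (difference -0.79, adjusted p = 0.109). The manganese and zinc carriers Slc30a10, Slc30a1 and Slc39a14 were not called under any diet; Slc39a14, which also takes up iron, differed by -0.21, -0.19 and -0.19.

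**Figure D3:**
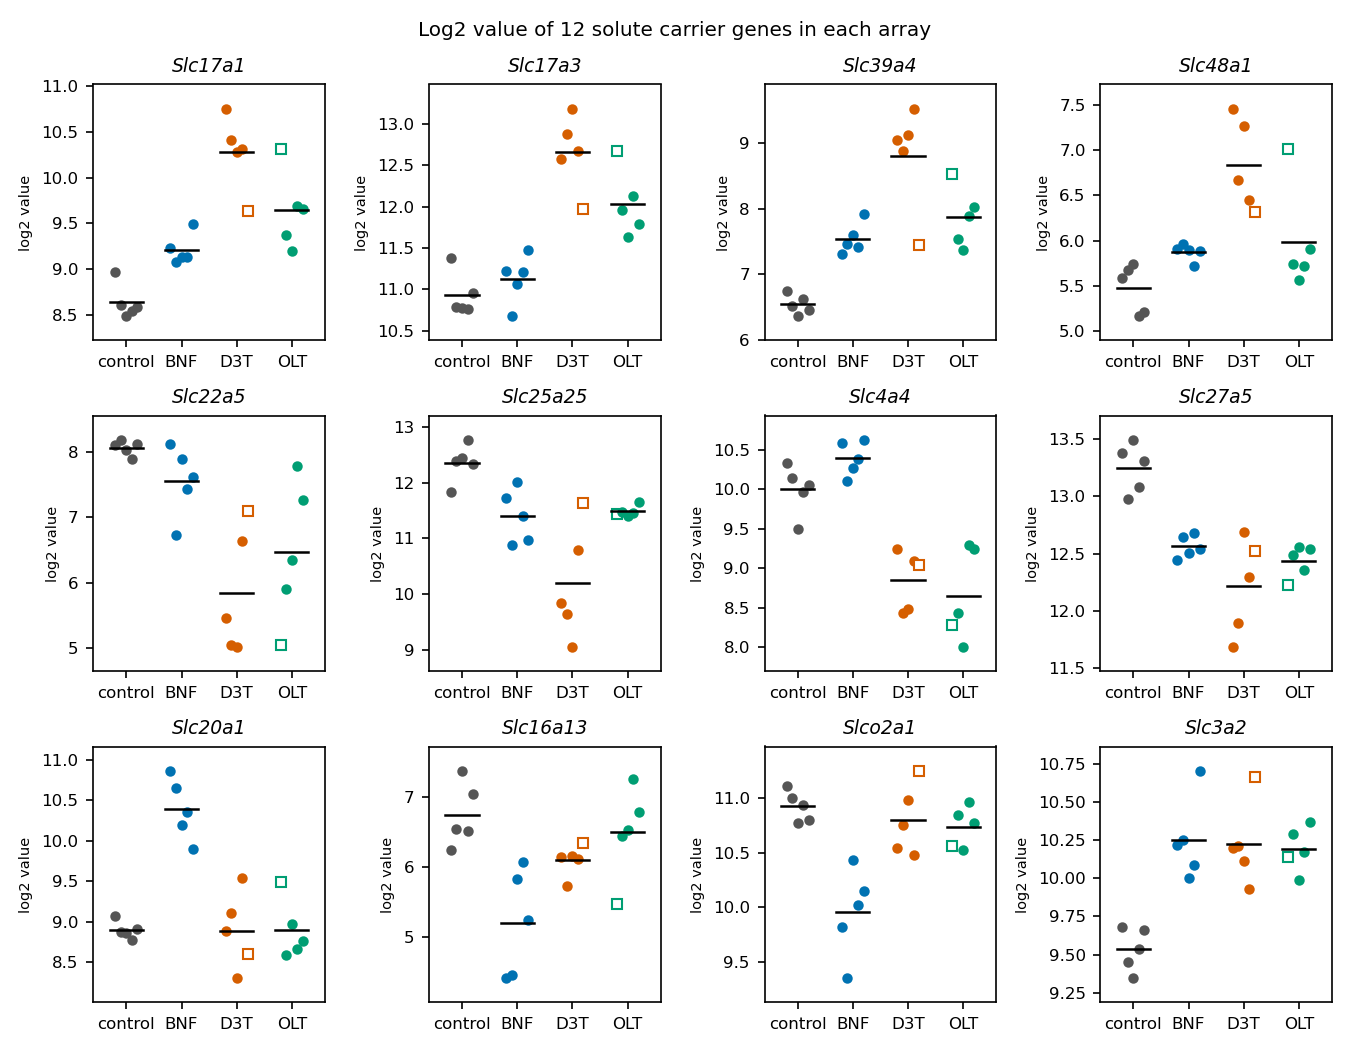
Log2 value of 12 carriers in each array, in 4 diet groups of 5; lines are group means and open squares mark D3T 5 and OLT 1. The genes were chosen after their values were seen. Slc39a4 lies above control in every treated array, and Slc20a1 is higher than control in the BNF arrays (9.90 to 10.86 against 8.77 to 9.07).

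The mitochondrial carriers of the Slc25 family (26 genes) held 3 increases and 5 decreases under D3T, 2 decreases under OLT and 2 under BNF. Slc25a25, which exchanges ATP-magnesium for phosphate across the inner membrane, read 11.84, 12.39, 12.44, 12.76 and 12.34 in control and 9.85, 9.64, 9.06, 10.80 and 11.63 in D3T arrays. In OLT arrays it lay between 11.40 and 11.66 and in BNF arrays between 10.89 and 12.02. D3T arrays did not overlap the controls, and D3T 5 was the closest to them. The D3T difference was -2.16 (SE 0.35, 4.47-fold lower, adjusted p = 4.84e-04). The BNF and OLT groups had means of 11.40 ± 0.48 and 11.49 ± 0.10 against 12.35 ± 0.33 and were not called. Its paralog Slc25a23 went the other way under D3T, rising by 0.71 (SE 0.20, adjusted p = 0.0235), a call lost without any 1 of control 2, 3, 4 or D3T 2, 3 (adjusted p from 0.0547 to 0.0694).

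Slc25a25 is shown as the largest decrease among the mitochondrial carriers and the other fallen carrier, beside Slc49a4, with TGACNNNGC in its window under D3T (GRCr8, chr3:36116532-36116831, minus strand, match in capitals).

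Slc25a25: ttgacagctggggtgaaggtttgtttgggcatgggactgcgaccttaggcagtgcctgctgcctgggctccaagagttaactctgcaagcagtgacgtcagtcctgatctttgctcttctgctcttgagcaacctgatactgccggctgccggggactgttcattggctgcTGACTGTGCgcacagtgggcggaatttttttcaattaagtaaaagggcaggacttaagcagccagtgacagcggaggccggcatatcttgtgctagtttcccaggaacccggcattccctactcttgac

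Slc25a22, a mitochondrial glutamate carrier, fell under both dithiolethiones and not under BNF. It read between 11.42 and 11.84 in control and 11.42 and 11.83 in BNF arrays, and between 10.25 and 10.75 in D3T and 10.77 and 11.15 in OLT arrays. The difference was -1.19 under D3T (SE 0.11, 2.29-fold lower, adjusted p = 2.77e-06) and -0.74 under OLT (SE 0.11, 1.67-fold lower, adjusted p = 5.33e-04). BNF lay above D3T by 1.17 (adjusted p = 1.31e-06) and above OLT by 0.72 (adjusted p = 4.54e-04). Slc25a39, which imports glutathione into mitochondria, rose under D3T from 11.51 ± 0.13 to 12.06 ± 0.15 (difference 0.55, SE 0.12, adjusted p = 0.00499), all D3T arrays above all controls. In OLT arrays it read 12.06 in OLT 1 and 11.24 to 11.73 in the rest, and in BNF arrays 11.18 to 11.35. A dim second probe set gave 0.18 under D3T (adjusted p = 0.577), and the mean of both was not called (adjusted p = 0.0661). Slc25a39 is also high in red cell precursors, and the erythrocyte markers Alas2 and Hbb rose in the same group by 1.93 and 1.0; under OLT they rose by 1.84 and 1.1.

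Both carriers that serve the urea cycle had calls. Slc25a13, the aspartate-glutamate carrier citrin, differed by -0.46, -0.45 and -0.47 under BNF, D3T and OLT (SE 0.12 each, adjusted p = 0.0490, 0.0246 and 0.0282). The BNF call was lost without any 1 of 12 arrays, control 1, 2, 4, 5, BNF 1, 2, 4, 5, D3T 1, 3, 5 and OLT 2 (adjusted p from 0.0542 to 0.143), and under 6 other settings, among them quantile normalization (0.075), no filter (0.098) and the mean of its probe sets (0.187). The D3T call was lost without control 1, 4, 5 or D3T 2, 3 (0.0530 to 0.0725) or without the filter (0.0538), and the OLT call without control 1, 2, 4, 5 or OLT 1, 2, 3 (0.0523 to 0.0767); without D3T 5 and OLT 1 the OLT value was 0.0823, and with the mean of its probe sets 0.0537. A second probe set gave -0.26 (adjusted p = 0.638), -0.71 (adjusted p = 0.0325) and -0.46 (adjusted p = 0.202). Slc25a15, the ornithine carrier, fell by 0.57 under D3T (SE 0.11, adjusted p = 0.00262) and by 0.42 under BNF (SE 0.11, adjusted p = 0.0406). Its BNF call was lost without any 1 of 11 arrays, control 1, 2, 4, 5, BNF 1, 2, 4, 5, D3T 3 and OLT 2, 4 (0.0509 to 0.110), and under 8 other settings, among them median centring (0.191), the replicate block (0.0755) and the mean of its probe sets (0.258); its other probe sets ranged from -0.42 to 0.04 under BNF. Slc25a42, the coenzyme A carrier, fell by 1.03 under D3T (SE 0.26, adjusted p = 0.0132), with differences of -0.78 and -0.72 under BNF and OLT that were not called. Slc25a1, the citrate carrier, rose by 0.40 under D3T (SE 0.11, adjusted p = 0.0252), a call lost without control 2, 4 or D3T 1, 2, 5 (0.05 to 0.0693) and without D3T 5 and OLT 1 (0.0562). The carnitine-acylcarnitine carrier Slc25a20 and the dicarboxylate carrier Slc25a10 were not called under any diet.

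Carriers of carboxylates, carnitine and thyroid hormone (6 genes) and of fatty acids, choline and lipids (6 genes) had decreases and no increase under any diet. Over all genes 1.77%, 5.6% and 1.93% were higher under BNF, D3T and OLT. The absence of increases among so few genes is near those shares. Slc22a5, the carnitine importer OCTN2, read 8.11, 8.18, 8.03, 7.89 and 8.13 in control and 5.46, 5.04, 5.02, 6.63 and 7.09 in D3T arrays. In OLT arrays it read 5.05, 5.91, 6.35, 7.78 and 7.27, and in BNF arrays 8.13, 6.73, 7.89, 7.44 and 7.62. The control arrays were tight and every D3T and OLT array lay below them, over a range of more than 2 in each group. The difference was -2.22 under D3T (SE 0.45, 4.66-fold lower, adjusted p = 0.00358) and -1.60 under OLT (SE 0.45, 3.03-fold lower, adjusted p = 0.0415). The OLT call was lost without any 1 of 10 arrays, control 1, 2, 3, 4, 5, BNF 4, 5 and OLT 1, 2, 3 (adjusted p from 0.0502 to 0.114), and without D3T 5 and OLT 1 (difference -1.24, adjusted p = 0.0720).

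Slc16a12, a creatine transporter of the monocarboxylate family, fell under D3T by 1.09 (SE 0.24, adjusted p = 0.00526) and under OLT by 0.89 (SE 0.24, adjusted p = 0.0286), from 11.83 ± 0.44. A second probe set gave -1.54 (adjusted p = 0.0158) and -0.95 (adjusted p = 0.161). The OLT call was lost without control 1, 4, 5 or OLT 1, 2, 3 (adjusted p from 0.0559 to 0.0826) and without D3T 5 and OLT 1 (0.0828). Slc16a13, of the same family, fell under BNF and had the largest decrease of any carrier there. It read 6.24, 6.55, 7.37, 6.52 and 7.04 in control and 4.42, 4.46, 5.83, 6.08 and 5.25 in BNF arrays, without overlap. The difference was -1.54 (SE 0.33, 2.90-fold lower, adjusted p = 0.0125), and a second probe set gave -1.40 (adjusted p = 0.0773). The lactate carrier Slc16a1 was not called under any diet, and the dicarboxylate carrier Slc13a3 differed by -0.81, -0.81 and -0.83, none called; without D3T 5 and OLT 1 it was called under D3T (-1.0, adjusted p = 0.0274).

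Slc27a5, the bile acid coenzyme A ligase that also takes up fatty acids, fell under every diet. It read between 12.98 and 13.49 in control, 12.45 and 12.68 in BNF, 11.69 and 12.69 in D3T and 12.23 and 12.56 in OLT arrays, with no treated array in the control range. The difference was -0.68 (SE 0.15, adjusted p = 0.0140), -1.03 (SE 0.15, adjusted p = 2.36e-04) and -0.82 (SE 0.15, adjusted p = 0.00331) in that order. Median centring ended the BNF call (adjusted p = 0.0645). Slc27a2, the very long chain fatty acid ligase, fell by 0.40 under D3T (SE 0.06, adjusted p = 3.49e-04) and by 0.42 under OLT (SE 0.06, adjusted p = 4.77e-04), with BNF at 13.83 ± 0.06 against 13.82 ± 0.08 in control. These calls did not hold after median centring (adjusted p = 0.174 and 0.204).

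Among the carriers of amino acids and peptides (16 genes), Slc3a2 rose under every diet. It codes for the heavy chain CD98, the partner that brings the light chains of amino acid exchangers to the membrane. It read 9.68, 9.45, 9.35, 9.54 and 9.66 in control and 10.22, 10.25, 10.09 and 10.70 in BNF arrays 1, 2, 4 and 5, with BNF 3 at 10. In D3T arrays it read 10.20, 10.21, 10.11, 9.93 and 10.66, and in OLT arrays 10.14, 10.29, 9.99, 10.17 and 10.37. All 15 treated arrays lay above all controls, and the treated groups overlapped each other. The difference was 0.72 (adjusted p = 0.00618), 0.69 (adjusted p = 0.00327) and 0.65 (adjusted p = 0.00790) under BNF, D3T and OLT, each with an SE of 0.14.

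Slc22a18 and Slc3a2 both rose under every diet, and a motif match was found for Slc3a2 alone. Slc3a2 is shown for that match, so the window does not link the motif to the rise. Its window (GRCr8, chr1:215048015-215048314, minus strand) holds TNGCGTG, in capitals.

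Slc3a2: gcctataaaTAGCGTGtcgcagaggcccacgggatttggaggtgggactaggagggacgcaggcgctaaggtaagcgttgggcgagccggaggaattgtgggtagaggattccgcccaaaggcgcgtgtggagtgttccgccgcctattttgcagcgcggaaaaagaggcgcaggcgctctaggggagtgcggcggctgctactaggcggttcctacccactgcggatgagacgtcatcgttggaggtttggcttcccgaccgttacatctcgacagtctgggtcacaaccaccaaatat

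The light chain Slc7a11, which pairs with CD98 to import cystine, read between 3.23 and 3.88 in all 20 arrays and was not kept. Slc6a9, a glycine transporter, fell by 0.70 under BNF (SE 0.18, adjusted p = 0.0349), a call lost without control 1, 2, 3 or BNF 1, 2, 4 (adjusted p from 0.0734 to 0.102). It was also lost under 7 other settings, among them median centring (0.091), no filter (0.0803), the replicate block (0.064) and the mean of its probe sets (0.17), and a second probe set gave -0.88 (adjusted p = 0.484). Slc16a10, a carrier of aromatic amino acids, fell by 0.54 under D3T (SE 0.16, adjusted p = 0.0360) and by 0.57 under OLT (SE 0.16, adjusted p = 0.0417). The D3T call was lost without control 1, 2, 5 or D3T 2, 3 (0.0747 to 0.107), and the OLT call without control 1, 2, 5, BNF 1 or OLT 1, 2, 3, 4 (0.0524 to 0.114) and without D3T 5 and OLT 1 (0.0668). Slc43a1, a carrier of large neutral amino acids, fell by 0.85 under D3T (SE 0.26, adjusted p = 0.0408), a call lost without control 1, 2, 4, 5 or D3T 1, 2, 3 (0.0599 to 0.118). The glutamine and neutral amino acid carriers Slc38a2, Slc38a3 and Slc38a4 and the taurine carrier Slc6a6 were not called under any diet. Slc6a6 differed by 1.69 under D3T, with a wide 95% interval of 0.51 to 2.87 (adjusted p = 0.0585). Without D3T 5 and OLT 1 it was called there (1.73, adjusted p = 0.014), as was Slc38a4 (-0.60, adjusted p = 0.0315).

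Among the inorganic ion carriers (15 genes), 1 gene rose and 1 fell under BNF, and 1 gene fell under each dithiolethione. Slc20a1, the sodium-phosphate cotransporter PiT1, had the largest increase of any carrier under BNF. It read 9.07, 8.88, 8.86, 8.77 and 8.91 in control and 10.86, 10.65, 10.19, 10.36 and 9.90 in BNF arrays. In D3T arrays it lay between 8.31 and 9.54 and in OLT arrays between 8.59 and 9.49, around the control level and below every BNF array. The BNF difference was 1.49 (SE 0.22, 2.82-fold, adjusted p = 4.76e-04). BNF exceeded D3T by 1.5 (SE 0.22, adjusted p = 1.22e-04) and OLT by 1.5 (SE 0.22, adjusted p = 2.40e-04). Slc13a4, a sulfate carrier, fell under BNF from 7.28 ± 0.45 to 6.34 ± 0.27 (difference -0.94, SE 0.22, adjusted p = 0.0193), a call lost without control 1, control 5 or BNF 2 (adjusted p from 0.0504 to 0.0578).

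Slc4a4, the sodium-bicarbonate cotransporter NBCe1, fell under both dithiolethiones. It read 10.33, 10.14, 9.5, 9.96 and 10.06 in control and 9.25, 8.43, 8.48, 9.09 and 9.04 in D3T arrays. In OLT arrays it read 8.29, 8.44, 8.01, 9.29 and 9.25, and in BNF arrays between 10.11 and 10.62. Neither dithiolethione group overlapped the controls. The difference was -1.14 under D3T (SE 0.24, 2.21-fold lower, adjusted p = 0.00405) and -1.34 under OLT (SE 0.24, 2.53-fold lower, adjusted p = 0.00214). BNF lay above D3T by 1.53 (adjusted p = 2.41e-04) and above OLT by 1.73 (adjusted p = 1.33e-04). A dimmer probe set gave -1.88 (adjusted p = 0.0461) and -0.66 (adjusted p = 0.532), and the mean of both was not called under OLT (adjusted p = 0.0617).

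Of the remaining classes, vitamin carriers had 2 of 5 genes higher under D3T and sugar carriers 1 of 5, beside 5.6% of all genes. Nucleoside and nucleotide sugar carriers had 1 of 16 lower under OLT, beside 5.58% of all genes. Of 5 vitamin carriers, Slc5a6, which carries biotin and pantothenate, rose under D3T by 0.65 (SE 0.20, adjusted p = 0.0410), and Slc19a2, a thiamine carrier, by 0.49 (SE 0.15, adjusted p = 0.0398). The Slc5a6 call was lost without control 1, 3, 5, BNF 1 or D3T 1, 3, 4 (adjusted p from 0.0518 to 0.108). That of Slc19a2 was lost without control 2, 4, 5 or D3T 3, 4, 5 (0.0736 to 0.110) and without D3T 5 and OLT 1 (0.0874). Of 5 sugar carriers, Slc50a1, a member of the SWEET family of sugar carriers, rose under D3T from 4.78 ± 0.62 to 6.18 ± 0.96 (difference 1.41, SE 0.35, adjusted p = 0.0138); its D3T arrays read 6.75, 5.94, 5.42, 7.54 and 5.25 and overlapped the controls, which reached 5.44. Fitting only the control and D3T arrays gave an adjusted p of 0.0808. Slc2a2, the liver glucose carrier, and Slc37a4, the glucose 6-phosphate carrier of the endoplasmic reticulum, were not called under any diet; Slc37a4 differed by -0.55, -0.26 and -0.50. Of 16 carriers of nucleosides and nucleotide sugars, Slc35a4 fell by 0.41 under OLT (SE 0.10, adjusted p = 0.0216), a call lost without control 2 (adjusted p = 0.0656) and after median centring (0.321). Slc29a1, a nucleoside carrier, and Slc35a1, the CMP-sialic acid carrier, were not called against control. None of 7 other or orphan carriers was called under any diet.

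OLT carries a methyl and a pyrazinyl group on the dithiole-thione ring that D3T has without substituents. Their doses in the diet differed, 600 and 500 mg per kg, so the values stand side by side. No carrier was called between OLT and D3T (0% of all genes were called by limma; 19 carriers had an unadjusted p under 0.05). The groups did not overlap for 5 carriers, beside 1.16% of all genes. A p that misses the threshold does not show that the diets act alike, and the 95% intervals of OLT minus D3T allow sizeable differences. For Slc25a25 the difference was 1.29 (interval 0.57 to 2.02, adjusted p = 0.189), for Slc39a4 -0.93 (-1.53 to -0.33, adjusted p = 0.254) and for Slc48a1 -0.84 (-1.36 to -0.32, adjusted p = 0.227). For Slc22a18 it was -0.35 (-0.49 to -0.21, adjusted p = 0.113), the groups not overlapping. The intervals were narrower around 0 for Slc3a2 (-0.32 to 0.26) and Slc40a1 (-0.20 to 0.21).

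Without D3T 5 and OLT 1, 9 carriers were called between OLT and D3T (4.84% of all genes were). Slc39a4 (-1.43), Slc48a1 (-1.23), Slc17a1 (-0.96), Slc17a3 (-0.96), Slc25a39 (-0.58) and Slc22a18 (-0.33) were lower under OLT, and Slc25a25 (1.66), Slc39a10 (1.47), a zinc importer, and Slc25a22 (0.52) were higher. Those arrays were left out because each correlated more with the other dithiolethione group, OLT 1 by a small margin. That choice was not independent of the comparison, and no result rests on these 9 calls.

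**Figure D4:**
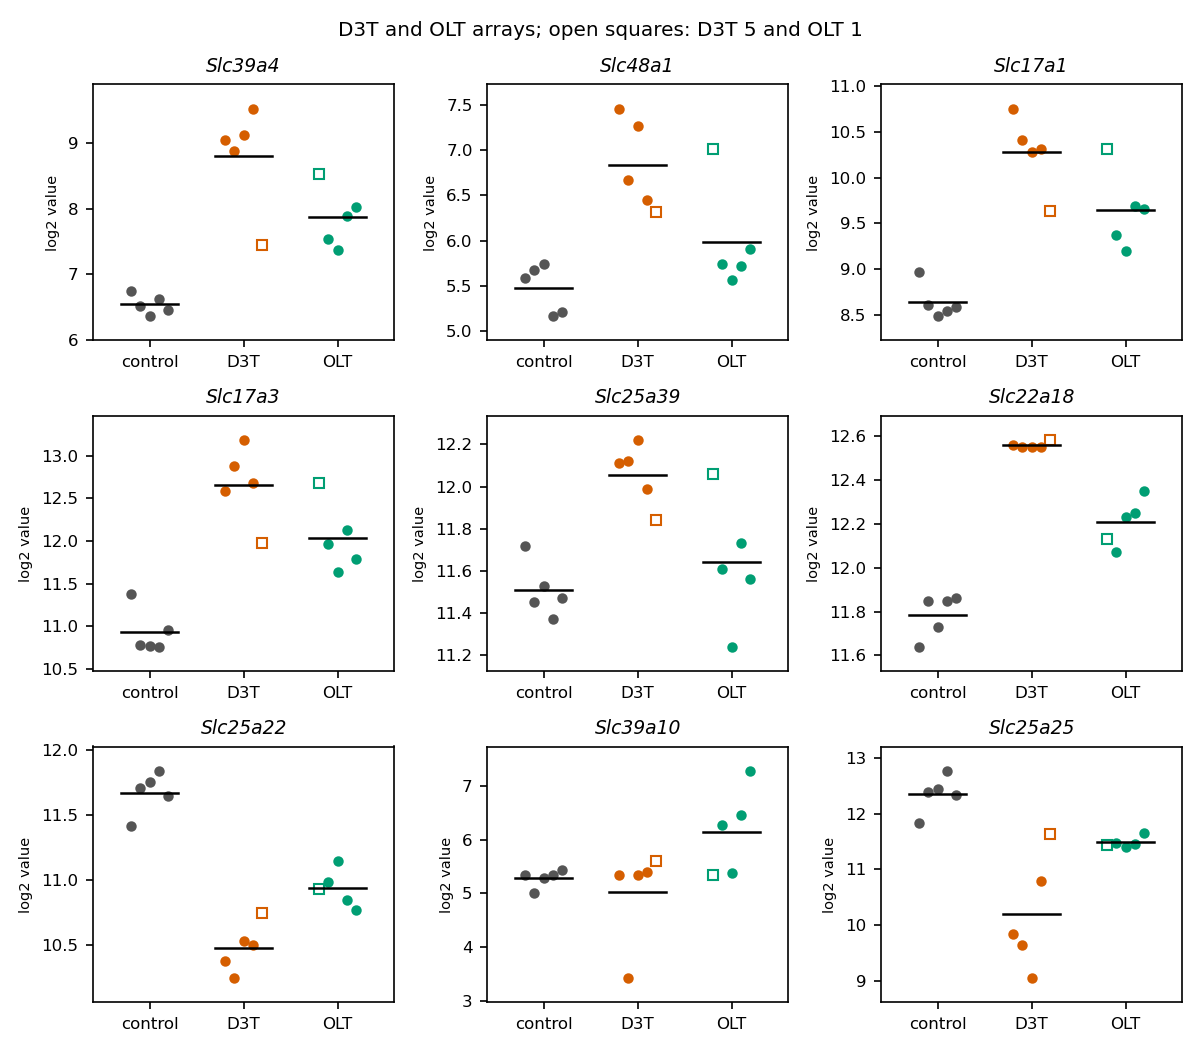
Log2 value in each control, D3T and OLT array of the 9 carriers called between OLT and D3T when the arrays labelled D3T 5 and OLT 1 (open squares) are left out; lines are means with all arrays. For Slc39a4 the square of D3T 5 (7.44) lies among the OLT arrays and that of OLT 1 (8.53) above them; for Slc22a18 both squares lie within their own groups.

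Between BNF and the dithiolethiones 31 carriers were called against D3T, 12 higher and 19 lower under BNF (21.7%, against 17.6% of all genes, 6.78% higher and 10.8% lower). Against OLT 13 were called, 6 higher and 7 lower (9.09%, against 11.7%, 6.41% higher and 5.28% lower). With median centring they were 9 higher and 28 lower, and 5 and 13. Without D3T 5 and OLT 1 there were 30 and 13 (17.7% and 9.75% of all genes). The groups did not overlap for 24 and 10 carriers, beside 15% and 9.91% of all genes. Of the organic ion class, 7 genes were lower under BNF than under D3T and none was higher, led by Slc17a3 (-1.53, SE 0.22, adjusted p = 9.31e-05), Slc17a1 (-1.07, SE 0.20) and Slc22a23 (-0.85, SE 0.21). Not all 7 calls held. The mean of probe sets ended those of Slc22a23 (adjusted p = 0.616), Slco2b1 (0.675) and Slco2a1 (0.0513). The second Slco2b1 probe set gave 0.2 (adjusted p = 0.789). The Slc17a4 call was lost without the filter (0.0882) and with only the groups compared (0.0565), among other settings. Slc50a1 (-1.37, adjusted p = 0.0129), Slc39a4 (-1.26, adjusted p = 0.0057) and Slc48a1 (-0.96, adjusted p = 0.0128) were, beside Slc17a3 and Slc17a1, the other largest lower calls against D3T, and no single array or setting tried ended them. The copper importer Slc31a1 was called lower (-0.32, SE 0.09, adjusted p = 0.0207), but its other probe sets gave -0.14, 0.16 and 0.33, none called, and the mean of all gave 0.01 (adjusted p = 0.989); the call was also lost without BNF 1 or D3T 3 (0.0609 to 0.062). Slc22a5 (1.71, SE 0.45, adjusted p = 0.0150), Slc4a4, Slc20a1 and Slc25a25 (1.21, SE 0.35, adjusted p = 0.0231) were the largest higher calls against D3T, followed by the amino acid carrier Slc38a2 (1.2, SE 0.38, adjusted p = 0.0383). The Slc22a5 call was lost without D3T 3 (adjusted p = 0.0501), that of Slc25a25 without BNF 1, 3 or D3T 2, 3 (0.0597 to 0.0751) and that of Slc38a2 without BNF 1, 2, 3 or D3T 1, 2, 3 (0.0580 to 0.110). The Slc25a25 call was also lost without the filter (0.0534) and with only the groups compared (0.101). That of Slc38a2 was also lost without the filter (0.0881) and with the replicate block (0.058). Against OLT, Slc16a13 (-1.29, SE 0.33, adjusted p = 0.0188), Slc22a23 (-1.04, SE 0.21, adjusted p = 0.00399) and Slc17a3 (-0.91, SE 0.22, adjusted p = 0.0111) were the largest lower calls, followed by Slco2a1 and Slc19a2 (-0.68, SE 0.15, adjusted p = 0.00715). Slc4a4, Slc20a1 and Slc38a2 (1.40, SE 0.38, adjusted p = 0.0239) were the largest higher calls, followed by Slc25a22 and the sodium-calcium exchanger Slc8a1 (0.54, SE 0.15, adjusted p = 0.0239). The mitochondrial carrier Slc25a30 differed by 1.13 and was not called (SE 0.39, adjusted p = 0.0783). The Slc8a1 call was lost without BNF 1, 2 or OLT 2, 4 (0.0564 to 0.0773), after median centring (0.133) and with only the groups compared (0.093). The Slc16a13 call was lost without BNF 1, 2 or OLT 4 (0.0520 to 0.0629) and that of Slc38a2 without BNF 1, 2, 3 or OLT 1, 3 (0.0518 to 0.0770) and without D3T 5 and OLT 1 (0.0628). With only the groups compared, the calls of Slc16a13 (0.0797) and Slc38a2 (0.0557) were lost, and without the filter that of Slc38a2 (0.0555). For Slc22a23 the second probe set gave 0.23 against D3T and -0.12 against OLT, neither called. The mean of both Slc22a23 probe sets was not called against OLT (adjusted p = 0.329).

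Genes that work with carriers, and other transporters, were read in lists set by hand. Over all genes 4.17% were called under BNF, 13.1% under D3T and 7.5% under OLT. Of 10 measured genes of the sodium pump and carrier partners, Atp1b1, the pump's beta subunit, fell under BNF by 0.84 (adjusted p = 0.0112), under D3T by 1.39 (adjusted p = 6.74e-05) and under OLT by 1.28 (adjusted p = 3.15e-04). Fxyd1, which modulates the pump, fell under BNF by 0.59 (adjusted p = 0.00860). Of 17 carriers and channels with other symbols, 1 rose and 2 fell under D3T, 1 rose and 1 fell under OLT and 1 fell under BNF. Aqp8, a water channel, rose by 1.18 and 0.92 under D3T and OLT (adjusted p = 7.21e-05 and 0.00131), and Mfsd2a, a lysophospholipid carrier, fell by 2.08 under D3T (SE 0.57, adjusted p = 0.0215). Of 11 ABC exporters, which pump substrates out with ATP, Abcc4 had a control mean of 3.80, near background, and rose under D3T by 1.81 (SE 0.39, adjusted p = 0.00484). The sterol exporter subunit Abcg5 rose under BNF by 2.21 (adjusted p = 0.0487) and fell under D3T by 2.49 (adjusted p = 0.0110), each with an SE of 0.60.

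RefSeq gave a promoter window for 120 of the 143 carriers. On either strand TGACNNNGC stood in 25 of them (20.8%), against 12.2% of 27457 promoters of the same length, and TNGCGTG in 8 (6.67%), against 5.12%. The 27457 promoters were those of all genes with a window, measured in these livers or not. The carriers had passed the level rule, so the shares are not of like sets. Of 13 windows of carriers that rose under D3T none held TGACNNNGC, and of 16 that fell 2 did. TNGCGTG stood in 1 of 2 windows of carriers that rose under BNF and in 2 of 8 of those that fell. In Slc22a23 the capitals of both motifs stand side by side in the window printed above. A match to these letters is a description of the sequence, and its absence says only that the letters are not in the window.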

How the data were processed

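Rat liver RNA was hybridized to 1-colour Affymetrix arrays, 20 in 4 diet groups of 5. The deposited log2 values were made by the authors with GCRMA, per the submitters' processing notes, with the version and settings not given in the sources used here; that method subtracts a background fitted per probe, brings arrays to 1 distribution and reduces probes to 1 value per probe set. They ran from 0.083 to 16.46 and were used as given, and values under about 4 lie near the background it leaves. The table held no scan dates, so scan batches were not looked for. The labels say nothing that links rats of the same number across groups. The median over kept probe sets of the difference of group means from control was -0.047 (BNF), -0.0243 (D3T) and -0.0409 (OLT). The medians of single arrays spread more widely, from 6.92 (OLT 3) to 7.47 (control 1). Arrays have no read depth; their number limits the precision.

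Of 31042 probe sets, 12947 passed the same level rule as the carriers (log2 over 4, 5 arrays or more) and were fitted in R 4.3.3 with limma 3.58.1 (lmFit and eBayes with an intensity trend, 1 mean per diet, two-sided, adjusted over all 12947). Background shares refer to 7837 genes, with 1 kept probe set each, that of highest mean. Gene names come from the platform annotation, and 25 carriers had more than 1 kept probe set. Substrate classes, partner lists and cell type markers were assigned by hand. The carriers, classes, lists and genes to name were chosen with earlier results of these data known. Named genes were set liver carriers, every carrier called against control or between OLT and D3T, and the 5 largest called in each direction between BNF and each dithiolethione; carriers called in another comparison alone were added later. Alternatives were median centring, quantile normalization, no filter, log2 above 6, eBayes without trend or robust, array weights, only the groups compared, a replicate block, the mean of probe sets, leaving out each array in turn, and leaving out D3T 5 and OLT 1. A covariate of each array's interquartile range was added after the data had been seen. On simulated data for D3T against control over 12947 probe sets, 73 of 100 2-fold and 99 of 100 4-fold changes were recovered, and 9 of 181 calls (4.97%) were false. The simulated noise was normal and independent, with the same SD in every group and no shifts between arrays. The real arrays differ in this, so these shares do not measure the real calls. Promoter windows are RefSeq sequences on GRCr8.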

Additional observations from a re-analysis of the deposited data

Results flagged for a closer look

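In each diet group of 5 arrays, the 70 measured carriers that the text names or that were called in any comparison were searched for a single array far from the others, relative to the range of the group (Dixon's 95% critical value). Of 280 groups 17 held such an array, and chance gives about 1 in 20. Slc48a1, the heme carrier, read 7.01 in OLT 1 and 5.56 to 5.91 in the other OLT arrays. Slc35a4 read 5.82 in the same array, against 5.51 to 5.59. Slc17a1 read 8.97 in control 1, against 8.49 to 8.61 in the other control arrays. Slc25a42, the coenzyme A carrier, read 8.75 in BNF 3 and 7.48 to 7.69 in the other BNF arrays. Slc25a25 read 11.66 in OLT 5 (11.40 to 11.48 in the others), Slc22a17 read 4.80 in OLT 2 (5.08 to 5.14), and Slc39a11 read 6.99 in BNF 5 (6.86 to 6.89). Slc39a10 read 3.43 in D3T 2 (5.34 to 5.61), Slc25a10 10.42 in D3T 5 (9.8 to 9.86) and Slc39a14 10.91 in the same array (10.27 to 10.36). Slc38a3 read 12.94 in OLT 1 (12.48 to 12.61) and Slc10a1 13.92 in OLT 5 (13.47 to 13.59). Slc39a1, a zinc importer, read 10.65 in control 3 (11.47 to 11.6) and 12.31 in BNF 2 (11.5 to 11.61), and Slco1b2 read 13.32 in BNF 2 (13.66 to 13.76). Slc35e3 read 8.17 in BNF 3 (7.71 to 7.77), and Slc7a6os, not a carrier itself, 6.15 in control 1 (6.83 to 7.04).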

How the results depend on the processing

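Counts of called carriers (BNF 12, D3T 31, OLT 16, BNF minus D3T 31, BNF minus OLT 13, OLT minus D3T 0, and 32 for the mean of D3T and OLT) moved by more than 1.5 times under some alternatives, and the cause was not tested. Array weights gave 27 for BNF, 38 for OLT, 34 for BNF minus OLT, 4 for OLT minus D3T and 52 for the mean of both dithiolethiones. Without a filter, D3T had 18 and the mean of both 20, with more probe sets to adjust over. The interquartile range covariate gave 26 for BNF minus OLT and 2 for OLT minus D3T, and quantile normalization gave 21 for BNF minus OLT. Leaving out D3T 5 and OLT 1 gave 9 for OLT minus D3T. Leaving out each array in turn gave 8 to 17 (BNF), 20 to 34 (D3T), 11 to 26 (OLT), 22 to 33 (BNF minus D3T), 9 to 16 (BNF minus OLT), 0 to 6 (OLT minus D3T) and 20 to 38 (mean of both). Of the calls, 7 of 12 (BNF), 18 of 31 (D3T) and 10 of 16 (OLT) stood in every such fit, and 4, 15 and 8 stood under every alternative in which the gene was tested. Under D3T, without the filter, the calls of Slc16a10, Slc19a2, Slc22a17, Slc25a1, Slc25a13, Slc25a23, Slc39a11, Slc39a3, Slc43a1, Slc49a4, Slc5a6, Slco1a1 and Slco1a4 were lost (adjusted p 0.0538 to 0.105), and with only the groups compared those of Slc16a10, Slc19a2, Slc22a17, Slc25a23, Slc39a11, Slc39a3, Slc43a1, Slc50a1 and Slc5a6 (0.059 to 0.121). Under OLT, without the filter, those of Slc16a10, Slc16a12, Slc22a5, Slc25a13 and Slc49a4 were lost (0.0623 to 0.112), and with only the groups compared the same and Slc35a4 (0.0664 to 0.111). Median centring also ended calls of Slc16a10 (D3T 0.0592, OLT 0.0748), Slc43a1 (D3T 0.0525) and Slc25a13 (OLT 0.0637). Among the 70 measured carriers named or called, 1 called difference changed sign: Slc31a1, BNF minus D3T, went from -0.32 to 0.01 with the mean of its probe sets. With the replicate number as a block the counts were 11, 35, 17, 28, 13, 0 and 32 in the order above; 11 of 30 same-number pairs correlated above 0.1 (-0.272 to 0.297), so the numbers were not taken as pairing the rats. Dim probe sets and 5 arrays per group limit what could be called.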
